A study of Homo sapiens with 6 samples.

Results

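The snoRNA host gene transcripts are the long noncoding RNAs whose introns carry small nucleolar RNAs (snoRNAs). They were taken as the rows of the gene table named SNHG followed by digits alone, together with GAS5, ZFAS1 and EPB41L4A-AS1. This gave 31 of 38637 rows. Levels are in TPM, in which reads are divided by gene length and every library sums to 1000000. Of the 31 rows, 28 averaged at least 0.1 TPM over the 6 libraries and are described here, and 27 averaged at least 1 TPM and entered the test.

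PolyA-Seq, the sequencing of polyadenylated RNA, was performed on HCCLM3-SR, a human hepatocellular carcinoma line made resistant to the multikinase inhibitor sorafenib by long exposure of its parent HCCLM3. Cells in the cDCBLD2 knockdown group received an siRNA against cDCBLD2 for 3 days, and control cells received a control siRNA for 3 days. Both groups, with 3 libraries each, were kept in 5 µM sorafenib, so that the resistant state and the drug are shared by all 6 libraries. cDCBLD2 is a circular RNA formed by back-splicing of 2 exons of DCBLD2, and the comparison asks which transcripts differ when it is depleted in this single resistant line.

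A snoRNA host gene is transcribed by RNA polymerase II and spliced, and its snoRNAs are trimmed out of the excised introns. Box C/D snoRNAs guide 2′-O-methylation of ribosomal RNA, H/ACA snoRNAs guide pseudouridylation, and small Cajal body RNAs (scaRNAs) guide the same modifications on spliceosomal RNAs. The spliced exons of many host genes code for no long protein and are removed by nonsense-mediated decay, a pathway that degrades RNAs with early stop codons while they are translated. Several host genes also begin with a 5′ terminal oligopyrimidine (TOP) sequence, the start that ribosomal protein mRNAs share and through which mTOR signalling sets their translation and stability. Levels of the spliced host RNA and of the mature snoRNA can therefore differ, and a poly(A) library reads mainly the former.

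The annotated first bases are shown because the TOP sequence is the feature these genes are best known to share. RefSeq windows of 30 bases on GRCh38.p14, 10 before the annotated start and 20 from it, were found for 24 of the 28 described host genes. A TOP-like start was scored as a C at the first base of the start that the RefSeq table gives followed by at least 4 further C or T bases on the gene's own strand, and the run is in capitals below. It was present in 6 of 24 host genes, against 4.04% of all promoters in the table and 5.46% of those whose gene averaged at least 1 TPM. This search was chosen with the values known. The other windows belong to the remaining host genes whose values the text turns on.
SNHG4, chr5:139274091-139274120, plus strand: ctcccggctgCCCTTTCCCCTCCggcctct
SNHG5, chr6:85678714-85678743, minus strand: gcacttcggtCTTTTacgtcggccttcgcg
SNHG32, chr6:31834906-31834935, plus strand: cattttagttCTTTTTgcgaagtgggctcg
ZFAS1, chr20:49278632-49278661, plus strand: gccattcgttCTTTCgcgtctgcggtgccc
SNHG12, chr1:28581854-28581883, minus strand: gcttcagcgcCCTTTCTCCCCgccgcattc
SNHG19, chr16:2155339-2155368, minus strand: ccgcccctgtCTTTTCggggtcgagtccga
SNHG1, chr11:62855866-62855895, minus strand: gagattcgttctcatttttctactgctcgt
SNHG3, chr1:28505933-28505962, plus strand: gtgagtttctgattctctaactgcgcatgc
SNHG7, chr9:136728165-136728194, minus strand: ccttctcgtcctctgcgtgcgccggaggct
GAS5, chr1:173869026-173869055, minus strand: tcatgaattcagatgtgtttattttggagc

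The 6 TOP-like starts differ in length. The run reached 13 bases in SNHG4 and 11 in SNHG12, and 5 or 6 bases in SNHG5, SNHG32, ZFAS1 and SNHG19. SNHG7 and SNHG26 had a run of 4 bases, just short of the minimum. For SNHG12 and ZFAS1 the start given by the table lies inside the gene's annotated span, which begins at position 28582983 on the minus strand and 49278178 on the plus strand, so the score belongs to that start alone. For the other windows shown it is the outer end of the gene. A window without capitals says only that these letters do not stand at the annotated start, and a start used in these cells could lie elsewhere.

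Depth was recovered from the ratios of the TPM values and ranged from 17489570 to 23059351 reads per library, as lower bounds. The circle itself has no row in the gene table, so the knockdown was not checked directly here. The authors reported knockdown by quantitative PCR in their resistant lines, also under sorafenib. They saw no obvious consistent change of DCBLD2 mRNA or protein after it. The row of DCBLD2 does not separate linear from circular RNA of the gene. It was 58.1, 25.9 and 31.6 TPM in knockdown libraries 1 to 3 and 71.5, 48.5 and 50.7 TPM in control libraries 1 to 3. The ranges overlapped, and the log2 fold change of -0.61 had an adjusted p of 0.253, or 0.0139 with same-numbered libraries paired. With a GC-content offset and this pairing it was -0.28 with an adjusted p of 0.0510. Of 9 hepatic epithelial markers, the keratins KRT8 and KRT18 ranged from 1800 to 4413 TPM, while ALB, AFP, TTR, APOA1 and SERPINA1 did not exceed 3.01 TPM and GPC3 and EPCAM were near 0. Summed levels of the 9 markers were 5812 to 6975 TPM in knockdown and 4804 to 5622 TPM in control libraries. Of 8 markers of other cell types, CD3E was at 0 in every library, CD68 was 90.0 to 125.1 TPM, and their sums were 116.1 to 135.5 TPM in knockdown and 98.3 to 119.7 TPM in control libraries.

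The host genes were abundant long noncoding RNAs in these cells. In control libraries, 5 of them were among the 10 highest and 12 among the 50 highest rows typed as long noncoding RNA. The median of the 27 tested host genes was 24.8 TPM in control libraries, compared with 15.2 TPM for all 13980 genes tested. Their summed level was 2185.5 ± 196.6 TPM in the knockdown and 2388.5 ± 262.0 TPM in the control group (SD, n = 3 each). The groups overlapped, from 1969 to 2353 TPM against 2086 to 2550 TPM, and the sum took 0.197% to 0.255% of all TPM in a library.

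A few host genes carried most of this sum. SNHG29, which carries SNORD49A, SNORD49B and SNORD65, was the highest at 436, 562 and 526 TPM in knockdown and 434, 561 and 549 TPM in control libraries. It ranked 3 among long noncoding RNA rows. SNHG6, GAS5, SNHG32 and SNHG5 followed, with control means between 238 and 276 TPM, and together with SNHG29 these genes held 63.7% of the control sum. Their order is not firm, because the ranges of SNHG6, GAS5, SNHG32, SNHG5 and ZFAS1 over the control libraries overlapped from each to the next. ZFAS1 ranged from 164.5 to 232.9 TPM, and no other host gene exceeded 121.0 TPM in any library.

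The low end of the list was close to the detection limit. SNHG22 averaged 1.39 TPM, and SNHG21, SNHG25 and SNHG26 averaged 3.04 to 3.32 TPM. SNHG31 was the only described host gene below the limit of the test, at 0.0644, 0.0474 and 0.102 TPM in knockdown and 0.265, 0.334 and 0.279 TPM in control libraries. These values did not overlap but stand for 1 to 6 recovered reads per library, as lower bounds. With the limit lowered to 0.1 TPM, the log2 fold change was -0.27 with an adjusted p of 0.152, or 0.126 with the replicate block. Among the 3 rows under 0.1 TPM, SNHG27 was listed at 0 in every library, and SNHG18 and SNHG28 had at most 1 recovered read in a library.

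No host gene passed the threshold of an adjusted p under 0.05 between knockdown and control in the limma test over all 13980 genes, in which 0.88% of all genes passed. In bulk RNA, fewer cells of a kind and less RNA per cell cannot be told apart. The smallest adjusted p among host genes was 0.0671, for SNHG5. At an unadjusted p under 0.05 there were 5 host genes of 27, while 26.1% of all genes reached this level. Limma-voom on the recovered reads also called 0 host genes of 26, with 3.01% of all genes called and 3 host genes at an unadjusted p under 0.05. A single library decided this count: without knockdown replicate 1, SNHG7 was called higher and SNHG3, SNHG4, SNHG5 and SNHG10 lower, while 24.5% of all genes were called, and leaving out any other library left 0 genes called of all 13980. The median log2 fold change, knockdown minus control on log2(TPM + 1), was -0.08 for the host genes, -0.08 for all genes tested and -0.06 for the 1503 other long noncoding RNA rows tested. Most host genes moved little: 22 of 27 had an absolute log2 fold change under 0.3, and the median absolute value was 0.16 compared with 0.20 for all genes.

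Same-numbered libraries of the 2 groups varied alike, clearly so for replicate 1 alone, and pairing them as a block changed the calls. With this replicate block, 9 of 27 host genes (33.3%) had an adjusted p under 0.05, close to the 35.0% of all genes called in the same fit. Of these, 8 were lower after knockdown (25.0% of all genes) and 1 was higher (9.94%), and SNHG25 alone also passed an absolute log2 fold change of 1 (1.21%). Blocked fits with another processing called 7 host genes with a GC-content offset (24.5% of all genes), 8 with upper-quartile scaling (34.0%) and 4 of 26 with voom (38.0%). The share of other long noncoding RNA rows called in this fit was 8.92% lower and 4.52% higher. Host genes are more abundant than most of these rows, and the part of abundance in the shares was not tested. The labels do not say what a replicate number stands for, nor whether libraries came from separate cultures, so p-values measure the spread between these libraries, which may be technical. The calls of host genes named from here on are those of the blocked fit. Each of them failed the test without the block when all 6 libraries were used. In simulated data, 9.05% of blocked calls were false without a replicate effect and 11.7% with one, above the threshold of 0.05. Those data had 200 of 13980 genes changed, while the blocked fit called 35.0% of all genes here. The false share among the calls here may therefore differ and was not measured.

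**Figure D1:**
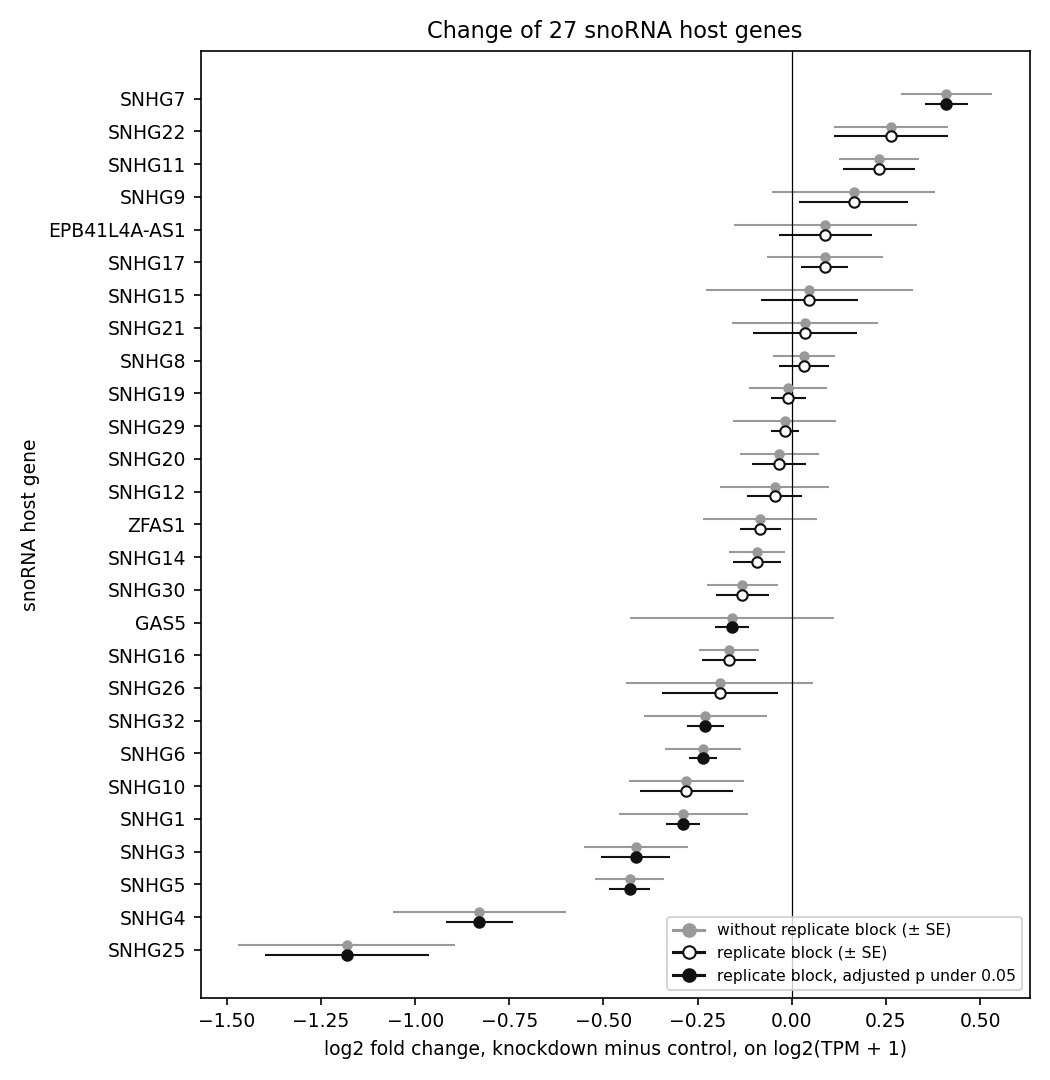
Log2 fold change of the 27 tested host genes, knockdown minus control on log2(TPM + 1), with bars of 1 standard error in the fit without the replicate block (grey) and with it (black), filled black where the adjusted p with the block was under 0.05. The blocked standard errors are narrower for most genes, and 8 filled symbols lie left of 0 and 1, SNHG7, lies right of it.

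Separation of the groups, counted without a model, also gave shares of host genes near those of all genes. All knockdown values were lower than all control values for 7 host genes (25.9%), compared with 22.3% of all genes, and above for 3 (11.1%), compared with 9.58%. The 7 were SNHG3, SNHG4, SNHG5, SNHG14, SNHG16, SNHG25 and SNHG30, and the 3 were SNHG7, SNHG11 and SNHG22. These were not the same genes as the blocked calls. SNHG1, SNHG6, SNHG32 and GAS5 were called but overlapped, while SNHG11, SNHG14, SNHG16, SNHG22 and SNHG30 separated without a call. Within same-numbered pairs, 12 host genes were lower in all 3 pairs and 3 were higher in all 3, compared with 43.7% and 22.0% of all genes. A single value compared between 3 and 3 libraries cannot reach an exact permutation p below 0.10.

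Of the 12 tested host genes annotated with box C/D snoRNAs alone, 5 fell with the replicate block and 0 rose, next to 25.0% and 9.94% of all genes, with log2 fold changes from -1.18 to -0.01 and a median of -0.18. With a GC-content offset per library and the block, 3 were called lower and 1 higher, next to 13.1% and 11.4% of all genes. The median in that fit was 0.02.

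SNHG5, which carries SNORD50A and SNORD50B, had 169, 177 and 181 TPM in knockdown libraries and 211, 239 and 263 TPM in control libraries. The lowest control library lay above the highest knockdown library. This gave a log2 fold change of -0.43 (SE 0.092, adjusted p = 0.0671), and with the block SE 0.054 and adjusted p = 0.00656. It was called in all 6 fits with the block. It was also called when each of the 3 replicate pairs was left out, since without 1 library the blocked fit draws nothing from its partner. No protein-coding gene overlaps its annotated locus, chr6:85677007-85678733 on the minus strand.

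SNHG25, a short transcript that carries SNORD104, showed the largest log2 fold change of the tested host genes on log2(TPM + 1). Its levels were 1.30, 0.956 and 2.06 TPM in knockdown and 2.67, 5.61 and 5.62 TPM in control libraries, without overlap. On the log2 scale this was -1.18 (SE 0.288, adjusted p = 0.0831), and with the block SE 0.218 and adjusted p = 0.0136. These levels rest on 1 to 5 recovered reads per library, which are lower bounds. The gene model of 111 bases is implied by these same reads, so it is a lower bound too. Voom did not test SNHG25. Reads of an intronic snoRNA could not be told apart from reads of the host here.

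SNHG1, the host of SNORD22 and of SNORD25 to SNORD31, had 64.0, 46.8 and 47.7 TPM in knockdown and 78.6, 55.9 and 59.8 TPM in control libraries. The groups overlapped, because replicate 1 was high in both, and each knockdown library lay below the control library of its number. The log2 fold change was -0.29 (SE 0.171, adjusted p = 0.326), and with the block SE 0.046 and adjusted p = 0.00962. With a GC-content offset and the block it was -0.0045 with an adjusted p of 0.957.

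SNHG6, the host of SNORD87, had 210, 258 and 235 TPM in knockdown and 253, 299 and 276 TPM in control libraries. The groups overlapped, and each knockdown library was the lower of its pair. Its log2 fold change was -0.24 (adjusted p = 0.197, or 0.00973 with the block). It turned to 0.09 with a GC-content offset and the block, with an adjusted p of 0.304.

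SNHG32, the host of SNORD48 and SNORD52, had 169, 239 and 207 TPM in knockdown and 198, 263 and 259 TPM in control libraries. All 3 pairs fell, by 0.14 to 0.33 on the log2 scale, within overlapping groups. The log2 fold change was -0.23 (adjusted p = 0.403, or 0.0199 with the block), and it was -0.20 with a GC-content offset and the block (adjusted p = 0.0255).

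The other 7 box C/D hosts were not called with the block. SNHG16 was 76.1, 76.6 and 66.8 TPM in knockdown and 78.4, 82.2 and 85.7 TPM in control libraries. SNHG14, the long host of the SNORD116 clusters in the imprinted region on chromosome 15, was 19.2, 20.1 and 19.6 TPM against 21.8, 20.5 and 20.6 TPM. SNHG30 was 19.6, 19.7 and 18.7 TPM against 23.7, 20.4 and 19.8 TPM. These 3 genes did not overlap between groups, but their adjusted p with the block was 0.125, 0.298 and 0.199. The remaining 4 overlapped between groups: ZFAS1 at 170 to 208 against 164.5 to 233 TPM, SNHG19 at 63.4 to 73.7 against 62.7 to 77.4 TPM, SNHG26 at 1.81 to 3.97 against 3.10 to 4.47 TPM, and SNHG29 as given above. SNHG29, ZFAS1, SNHG19 and SNHG26 had log2 fold changes from -0.19 to -0.01 with adjusted p of 0.282 or more in the blocked fit. With a GC-content offset and the block, SNHG29 was called higher at 0.14 (adjusted p = 0.0374).

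GAS5 and SNHG12 carry both kinds of snoRNA. GAS5, a growth arrest transcript and the classic TOP-bearing host gene, had 162, 267 and 248 TPM in knockdown and 172, 295 and 294 TPM in control libraries. Replicate 1 was low in both groups, and the difference between replicates was larger than that between treatments. The log2 fold change was -0.16 (SE 0.272, adjusted p = 0.741), and with the block SE 0.046 and adjusted p = 0.0450. A GC-content offset with the block turned GAS5 to 0.16 with an adjusted p of 0.0434, so that it was called in opposite directions by the 2 blocked fits. Without knockdown replicate 1 and without the block the value was 0.06. SNHG12 was 17.3, 12.4 and 14.5 TPM in knockdown and 17.2, 14.05 and 14.3 TPM in control libraries, with a log2 fold change of -0.05, and was not called.

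Of the 9 tested host genes annotated with H/ACA snoRNAs alone, 2 fell and 1 rose with the block, near the shares of all genes given above, with log2 fold changes from -0.83 to 0.41 and a median of 0.09. With a GC-content offset and the block, 1 was called lower and 1 higher, next to 13.1% and 11.4% of all genes.

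SNHG4, the host of SNORA74A, had 9.79, 5.35 and 7.46 TPM in knockdown and 17.5, 11.8 and 12.8 TPM in control libraries. The groups did not overlap. This gave a log2 fold change of -0.83 (SE 0.230, adjusted p = 0.0985), and with the block SE 0.089 and adjusted p = 0.00521. Like SNHG5, it was called in all 6 blocked fits and without each of the 3 pairs. MATR3, which codes for the nuclear matrix protein matrin 3 and overlaps SNHG4 on the same strand, was 86.2, 46.2 and 51.0 TPM in knockdown and 116.8, 79.8 and 86.0 TPM in control libraries. Its log2 fold change was -0.65 (adjusted p = 0.175, or 0.00619 with the block). How reads of the shared sequence were divided between the 2 rows is not given in the sources used here.

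SNHG3, the host of SNORA73A and SNORA73B, had 37.4, 52.7 and 52.0 TPM in knockdown and 60.4, 63.1 and 64.7 TPM in control libraries. The control values lay within a narrow range above all knockdown values, and the first pair differed most, at -0.69 against -0.26 and -0.32 on the log2 scale. The log2 fold change was -0.41 (SE 0.138, adjusted p = 0.131), and with the block SE 0.091 and adjusted p = 0.0217. With a GC-content offset and the block it was -0.26 with an adjusted p of 0.108. RCC1, the nucleotide exchange factor for Ran, overlaps SNHG3 on the same strand and had a log2 fold change of -0.21 (adjusted p = 0.301, or 0.0204 with the block).

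SNHG7, the host of SNORA17A and SNORA17B, was the single host gene called higher. It had 89.5, 103 and 121 TPM in knockdown and 73.2, 76.2 and 84.4 TPM in control libraries, without overlap. On the log2 scale this was 0.41 (SE 0.121, adjusted p = 0.109), and with the block SE 0.057 and adjusted p = 0.00771. It was called in all 6 blocked fits, and without pair 1 or pair 2 but not without pair 3. DIPK1B, on the opposite strand, had a log2 fold change of 0.33 and was not called in either fit (adjusted p = 0.347, or 0.102 with the block). Another gene annotated there on the same strand as SNHG7, LOC124900276, was not analysed here. Whether counting used strand is not given in the sources used here.

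The other 6 H/ACA hosts were SNHG8, SNHG9, SNHG11, SNHG15, SNHG17 and EPB41L4A-AS1, with log2 fold changes from 0.03 to 0.23. SNHG11 was 12.3, 13.5 and 10.9 TPM in knockdown and 10.2, 9.85 and 10.7 TPM in control libraries, and its groups did not overlap. Its adjusted p was 0.221, or 0.117 with the block. SNHG8 was 95.6 to 98.8 TPM in knockdown and 85.3 to 102.2 TPM in control libraries, and SNHG17 was 26.1 to 32.8 against 23.1 to 33.4 TPM. SNHG9 was 11.3 to 20.4 against 13.4 to 16.0 TPM, and EPB41L4A-AS1 was 20.3 to 25.4 against 14.8 to 28.97 TPM. For these 4 genes the groups overlapped. SNHG15 shows how replicate 1 can set a mean: it was 39.7, 21.8 and 18.9 TPM in knockdown and 29.4, 22.8 and 22.2 TPM in control libraries, so that the first pair rose and the other 2 fell.

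The 4 hosts of scaRNAs were SNHG10, SNHG20, SNHG21 and SNHG22, and none was called in either fit. SNHG10 was 10.9, 7.36 and 8.04 TPM in knockdown and 10.9, 11.4 and 9.87 TPM in control libraries. Its log2 fold change was -0.28 (adjusted p = 0.292, or 0.134 with the block). SNHG20 was 9.48 to 11.4 TPM in knockdown and 10.0 to 11.2 TPM in control libraries, and SNHG21 was 2.28 to 3.83 against 2.49 to 3.67 TPM, so that neither separated the groups. SNHG22 was 2.05, 1.38 and 1.41 TPM in knockdown and 1.10, 1.23 and 1.16 TPM in control libraries, on 12 to 23 recovered reads per library. Its groups did not overlap, and its log2 fold change of 0.26 had an adjusted p of 0.314, or 0.227 with the block.

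Grouped by annotated start, 3 of the 6 host genes with a TOP-like start (SNHG4, SNHG5 and SNHG32) were lower with the block, in which 25.0% of all genes were lower, with a median log2 fold change of -0.16. Among the 17 tested host genes with a known window and no such start, 3 were lower and 1 was higher, with a median of -0.03. With the GC-content offset and the block, 13.1% of all genes were lower and 11.4% higher. The counts in that fit were 3 lower and 0 higher with such a start, and 0 lower and 3 higher without it. GAS5, described above as a TOP-bearing host gene, has no such run at its annotated start and was counted among those without it. It was 1 of the 3 lower genes there with the block, and 1 of the 3 higher ones with the offset and the block. The members were few and the split was chosen with the values known, so the difference was not tested. Host genes with and without an overlapping protein-coding gene included 4 lower each with the block, of 13 and 14 genes, and 1 and 3 with the GC-content offset and the block. Higher calls were 1 and 0 with the block, in which 9.94% of all genes were higher. They were 3 and 0 with the GC-content offset and the block.

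Replicate 1 differed from replicates 2 and 3 by more than knockdown differed from control for several host genes. GAS5 in replicate 1 was lower than the mean of the other 2 libraries by 0.67 on the log2 scale in knockdown and by 0.78 in control (-0.671 and -0.775). EPB41L4A-AS1 differed by -0.32 and -0.87, SNHG32 by -0.40 in both groups, ZFAS1 by -0.27 and -0.47, and SNHG29 by -0.32 and -0.35. In the other direction, SNHG15 differed by 0.96 and 0.39, SNHG26 by 0.60 and 0.53, and SNHG1 by 0.44 in both. In all, 11 of 27 host genes were lower and 9 were higher in replicate 1 of both groups, compared with 32.8% and 46.3% of all genes tested. The 2 sides are not quite the same measure. Host genes were scored by TPM against the mean TPM of replicates 2 and 3. All genes were scored by log2(TPM + 1) against the mean of these logs. What replicate 1 stands for was not tested.

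The fold changes of all genes moved with the GC content of the transcript. Over 13160 genes with a GC content, Spearman's rho between GC content and log2 fold change was 0.635, and the median log2 fold change ran from -0.41 in the lowest of 10 bins of GC content to 0.13 in the highest. This is a correlation across genes of the same 6 libraries, and genes are not independent replicates. Over the 27 tested host genes rho was 0.431. Their GC content ran from 39.1% to 66.5% with a median of 49.05%, next to 49.06% for all genes. Of the host genes called with the block, SNHG7 was the 1 that rose, near the upper end of this range at 65.9%. SNHG1, SNHG3, SNHG4, SNHG5, SNHG6 and GAS5 were called lower and lay below the median. SNHG25 (62.2%) and SNHG32 (51.0%) were also called lower but lay above it. SNHG9, at the upper end with 66.5%, was not called. SNHG4, SNHG5, SNHG32 and SNHG25 were still called lower, and SNHG7 was still called higher, after the GC-content offset with the block, in which 13.1% of all genes were called lower and 11.4% higher. Their log2 fold changes in that fit were -0.55, -0.30, -0.20, -1.32 and 0.26. The part of GC content in the other calls was not tested beyond this offset.

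The snoRNAs themselves were hardly read in these libraries. Of 40 snoRNA and scaRNA rows checked for 15 of the host genes, 12 were above 0 in all 6 libraries and 4 were at 0 in all. The highest value was 43 recovered reads, for SNORD80 of GAS5 in control replicate 2, and the median over rows and libraries was 1 read. SNORD80 had 23, 26 and 23 reads in knockdown and 21, 43 and 37 reads in control libraries, and SNORD31 of SNHG1 had 21, 18 and 17 against 29, 24 and 32 reads. SNORA9 of SNHG15 lay the other way, with 16, 14 and 13 reads in knockdown and 9, 8 and 9 reads in control libraries. These 3 rows were chosen after their values were seen. Such counts in a poly(A) library cannot be told apart from reads of unspliced host RNA, and a change of mature snoRNAs was not tested on counts this low.

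Genes that act on snoRNAs and their hosts were counted in lists fixed with earlier results of these data known. Their counts stand beside the 25.0% of all genes lower and 9.94% higher with the block, and the 13.1% and 11.4% with the GC-content offset and the block. Most core proteins and protein-coding hosts lay above the all-gene median of 15.2 TPM in control libraries. The part of abundance in these counts was not tested. NOP56 and DKC1 stand in both of these lists. Among the 8 core proteins of snoRNA particles, 0 were called without the block and 6 were lower with it, or 4 with the GC-content offset and the block. NOP58, a box C/D core protein, averaged 95.8 TPM in control libraries and had a log2 fold change of -0.97 (adjusted p = 0.190, or 0.0113 with the block). DKC1, the pseudouridine synthase of H/ACA particles, had -0.40 (0.128 and 0.00504), and FBL, the methyltransferase of box C/D particles, had -0.15 (0.219 and 0.0499). The median of this list was -0.15 next to -0.08 for all genes.

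Assembly and transport factors were lower with the block in 8 of 14 cases, with none higher and a median of -0.23. With the GC-content offset and the block 4 were lower and 1 was higher, with a median of -0.12. ZNHIT6, a box C/D assembly factor, had a log2 fold change of -0.74 (adjusted p = 0.0933, or 0.00796 with the block). NOLC1, a nucleolar phosphoprotein that binds both kinds of particle, had -0.40 (0.125 and 0.00675). COIL, the scaffold of Cajal bodies, had -0.40 (0.142 and 0.0156), and its value with the offset and the block was -0.10 (adjusted p = 0.212).

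Nonsense-mediated decay factors were lower in 7 and higher in 1 of 16 cases with the block, with a median of -0.14. With the GC-content offset and the block 3 were lower and 0 higher, with a median of -0.04. SMG1, the kinase that phosphorylates UPF1, had a log2 fold change of -1.06 (adjusted p = 0.0778, or 0.00660 with the block), UPF2 had -0.88 (0.0892 and 0.0197) and UPF3A had -0.53 (0.0599 and 0.0116). UPF1, the central helicase, had 0.09 and was not called in either fit, and SMG5 was the factor called higher, at 0.22 (0.143 and 0.0132). With the offset and the block, UPF3A had -0.20 (adjusted p = 0.112) and SMG5 had 0.13 (adjusted p = 0.0619), so neither was called.

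Regulators of TOP mRNAs were lower in 6 of 10 cases with the block, with none higher and a median of -0.24. With the GC-content offset and the block 3 were lower and 1 was higher, with a median of -0.14. LARP4, a poly(A) and TOP mRNA binding protein, had -1.01 (adjusted p = 0.131, or 0.00528 with the block), RPS6KB1, the S6 kinase, had -0.68 (0.137 and 0.00644), CNBP, an RNA-binding zinc finger protein, had -0.27 (0.0892 and 0.00798), and LARP1, the TOP cap binding repressor, had -0.15 (0.260 and 0.0421). Of these, LARP4 alone was still called with the offset and the block, while RPS6KB1 had -0.27 (adjusted p = 0.0614), CNBP had -0.04 (0.439) and LARP1 had -0.13 (0.0627).

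Protein-coding snoRNA hosts other than ribosomal protein genes held the only list members called without the block. Of 28, 2 were lower in that fit, where 0.629% of all genes were lower, and 17 were lower with the block, with none higher in either. With the GC-content offset and the block, 11 were lower and 2 were higher. HSPA9, the mitochondrial chaperone mortalin, had 221, 212 and 197 TPM in knockdown and 338, 309 and 307 TPM in control libraries. Its log2 fold change was -0.60 (adjusted p = 0.0444, or 0.00436 with the block). CNOT1, the scaffold of the CCR4-NOT deadenylase, had 59.3, 46.8 and 43.9 TPM against 97.9, 86.2 and 96.9 TPM, a log2 fold change of -0.90 (0.0451 and 0.00457). TOMM20, a receptor of the mitochondrial outer membrane, had -0.46 (0.0592 and 0.00481), and with the offset and the block -0.12 (0.247). The median of this list was -0.19, or -0.09 with the GC-content offset.

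Genes that neighbour or overlap the host genes were lower in 3 and higher in 1 of 12 cases with the block, with a median of -0.09, or 4 and 1 with the GC-content offset and the block. MATR3 and RCC1 are given above with SNHG4 and SNHG3. UBE3A, which lies opposite SNHG14, had a log2 fold change of -0.55 (adjusted p = 0.169, or 0.0104 with the block, and 0.173 at -0.14 with the GC-content offset and the block). ZNFX1, the neighbour of ZFAS1, was the gene called higher, at 0.33 (0.134 and 0.0352), while ZFAS1 had -0.08. LRRC75A overlaps SNHG29 and was 80.9 to 101.7 TPM, and it ordered the 6 libraries as SNHG29 did apart from an exchange of the 2 libraries of replicate 2. Whether these 2 rows share reads is not given in the sources used here.

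Of the markers checked, KRT8 and KRT18 were higher with the block (0.32 and 0.26, adjusted p = 0.00669 and 0.00954), as were the collagens COL1A1 and COL3A1 (1.06 and 1.05, adjusted p = 0.0132 and 0.00787). None was called without the block. The part of these shifts in the values of the host genes was not tested.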

How the data were processed

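PolyA-Seq values of 3 cDCBLD2 knockdown and 3 control siRNA libraries were grouped by their titles. The authors deposited TPM per gene, with each library summing to 1000000. The submitters' processing notes name fastp 0.20.1, HISAT2 2.1.0, StringTie 2.0 and hg38, and the annotation, strand setting and treatment of multimapping reads are not given in the sources used here. The members and gene lists were chosen with earlier results of these data known.

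The 13980 genes averaging at least 1 TPM were tested on log2(TPM + 1), which understates fold changes of low genes. The test was limma 3.58.1 (R 4.3.3) with its trend option, adjusted by Benjamini and Hochberg over all of them, and a call is an adjusted p under 0.05. By a written rule, values are given for host genes averaging at least 1 TPM, in every library for those called with or without the block, and for the 3 genes of each other list with the smallest p without the block, DCBLD2 and annotated neighbours. SMG5, UPF1 and LARP1, and the per-library values of other host genes, were chosen after their values were seen.

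The pairing comes from the replicate numbers in the titles, which do not say what a number stands for. Deviations of same-numbered libraries from their group means correlated at 0.56, 0.34 and 0.36. The highest correlation of each knockdown library with a control library of another number was -0.38, 0.21 and 0.25. Replicate 1 thus stood apart, while pairs 2 and 3 were only weakly distinguished. The numbers were taken to pair the libraries, and blocked values are printed next to those without the block.

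Reads were recovered from TPM ratios as the smallest whole numbers in the observed ratio, within 0.02 reads, for all 17285 genes above 0 in all libraries. With the smallest count of a gene limited to 200, 48.9% of these genes came out whole, and 0% did after random shifts of the library factors by at most 10%. Recovered reads are lower bounds and intervals were not drawn from them. Limma-voom on these reads, upper-quartile scaling, median centring, other filters, a pseudocount of 0.1, GC-content and length offsets (loess, span 0.5), the replicate block and leaving out each library were the alternatives. GC content came from GENCODE release 29 and covered 94.2% of genes tested. Length was the model length implied by the TPM, in place of an annotated transcript length. Gene coordinates and start sequences came from RefSeq on GRCh38.p14.

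Before use, both fits were tested on simulated data with 200 of 13980 genes changed. With a replicate effect of SD 0.3, 1% of changes of log2 1 and 44% of those of log2 1.5 were found without the block and 79% and 95% with it, and 4.26% and 11.7% of calls were false. In simulation, read recovery was exact for 98.22% of 17765 genes. Scripts used Python 3.11.15, pandas 2.3.3, numpy 2.4.6, numba 0.67.0 and matplotlib 3.10.9.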

Additional observations from a re-analysis of the deposited data

How the results depend on the processing

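The count of host genes called depends mainly on the replicate block. Without it, 13 of 14 alternatives called 0 host genes, and the exception was the fit without knockdown replicate 1. Calls ranged from 0 to 1 higher and 0 to 4 lower over the fits that left out a library, and those 5 were SNHG7 higher and SNHG3, SNHG4, SNHG5 and SNHG10 lower, next to 24.5% of all genes in that fit. With the block, calls were 1 higher and 8 lower, and 35.0% of all genes were called. They were 3 and 4 with the GC-content offset and the block (24.5% of all genes), 1 and 8 with the length offset (32.2%) and 1 and 3 with voom (38.0%). A 0.1 TPM filter (21.7%) and upper-quartile scaling (34.0%), both chosen after seeing the data, gave 1 and 7 each. SNHG4, SNHG5 and SNHG7 were called in all 6 of these fits, SNHG3 and SNHG32 in 5, SNHG1 and SNHG6 in 4 and GAS5 in 3. SNHG25 was called in the 5 that tested it, because its few reads kept it out of voom. Leaving out a library from the blocked fit, also chosen after seeing the data, gave the same calls for either library of a pair, so that the 6 fits amount to 3. SNHG4 and SNHG5 were called in all 3, SNHG3, SNHG7 and SNHG25 in 2, and SNHG1, SNHG6, SNHG32 and GAS5 in 1. Either library of replicate 1 left out gave 1 higher and 10 lower, and either of replicate 3 gave 0 higher and 2 lower.

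GAS5 turned to 0.155 with the GC-content offset, with and without the block, and to 0.0631 without knockdown replicate 1, in a range down to -0.416 without control replicate 1. SNHG6 turned to 0.0863 with the GC-content offset, with and without the block. The median of the host genes, -0.08, was -0.013 with upper-quartile scaling with and without the block, 0.0019 with median centring, 0.0863 with the GC-content offset with and without the block, and 0.0289 with voom or 0.0296 with voom and the block. Over the fits that left out a library it ranged from -0.096 to -0.029. Upper-quartile scaling and centring moved the median of all genes by 0.06 and 0.09. Of the host genes never called in the fits with and without the block, SNHG12, SNHG19, SNHG20 and SNHG29 changed sign with upper-quartile scaling, and ZFAS1 as well with centring. Among all 27, signs changed for 7 with the GC-content offset, 3 with the length offset, 6 of 26 with voom and 1 to 7 without a library, and no sign of SNHG1, SNHG3, SNHG4, SNHG5, SNHG7, SNHG10, SNHG11, SNHG22, SNHG25 or SNHG32 changed in any of the 26 alternatives that tested it. The cause of these changes was not tested.

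Calls over the other lists together, neighbours and markers included and each gene counted once, were 2, while 0.88% of all genes were called. With the block they were 51 (35.0% of all genes), and with the GC-content offset and the block 38 (24.5%). Length and the block gave 43 (32.2%), and voom and the block 45 (38.0%). The 0.1 TPM filter and the block gave 41 (21.7%), and upper-quartile scaling and the block 42 (34.0%). The calls were 0 with a 0.1 TPM filter (0.0264%), with no filter (0.0158%) and with the GC-content offset (0.0304%), and 4 with the length offset (1.22%). Fits that left out a library gave 0 to 29, the 29 without knockdown replicate 1 (24.5%). DCBLD2 was called lower with the block (-0.61, adjusted p = 0.0139), with length and the block (-0.43), voom and the block (-0.52), the 0.1 TPM filter and the block (-0.61), upper-quartile scaling and the block (-0.54) and without knockdown replicate 1 (-0.95), while with the GC-content offset and the block it was -0.28 (adjusted p = 0.0510). Its values without a library ranged from -0.95 to -0.38. Depth limits SNHG22, SNHG25 and SNHG31 most, at 1 to 23 recovered reads per library.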
